A study of Mus musculus with 14 samples.

Results

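The genes described here are the 3 D cyclins (Ccnd1, Ccnd2 and Ccnd3), their kinase partners Cdk4 and Cdk6, the inhibitors Cdkn1a, Cdkn1b and Cdkn1c, the pocket protein gene Rb1 and the oncogene Mycn. These 10 genes were chosen by name, out of 22367 protein-coding genes of the GENCODE vM1 annotation, with earlier results of these data known. For each gene, all peaks of the E14 H3K27ac ChIP-Seq list that overlapped the gene body extended by 50 kb on either side were collected, which gave 31 of 13463 peaks. H3K27ac is the acetylation of a lysine in the tail of histone H3, a mark of active promoters and enhancers. The material was retina of wild-type CD1 mice at embryonic day 14 (E14). The labels call it retinal progenitor cells (RPCs), whereas the study's methods name whole dissected retinas, which also hold post-mitotic cells. In such a mixture, fewer cells carrying the mark and less mark per cell cannot be told apart. Both immunoprecipitated replicates (2 libraries) were pooled by the authors before peaks were called against 1 isotype control library, so there is 1 value per peak, with no replicate error, and no difference between genes was tested.

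D cyclins are the cyclins that link growth signals to the cell cycle. They bind CDK4 or CDK6, and the active kinases phosphorylate the retinoblastoma protein RB1, which releases E2F transcription factors and lets cells pass from G1 into S phase. The CIP/KIP inhibitors CDKN1A (p21), CDKN1B (p27) and CDKN1C (p57) bind cyclin-kinase complexes and favour cell cycle exit, and MYCN is a transcription factor that drives growth and proliferation of neural progenitors. In the embryonic retina, cyclin D1 is known as the main D cyclin of progenitors, p27 and p57 are used by progenitors that leave the cycle, and RB1 is needed for differentiating neurons to stay out of it.

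The list held 113543038 ChIP tags and 9210563 control tags after duplicates were removed. The shortest peak had 313 bp, the median peak 1015 bp and the longest 32865 bp. The pileup, which is the mean number of stacked fragments over a peak with the ChIP library scaled down to the control, was 15.1 at the median peak (6 at the lowest, 40.2 at the highest), and the median fold enrichment over the local isotype background was 4.46. Of the RPC markers, 12 of 12 genes had a peak at a transcription start site (TSS), and 5 of 7 markers of early post-mitotic retinal cells had one (not Crx and Neurod1). Of 19 markers of pigment epithelium, lens, endothelium, microglia and tissues outside the eye, 1 had one, the endothelial gene Kdr (pileup 11.4). The share over all protein-coding genes was 49.8%.

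A TSS peak, defined as a peak within 1000 bp of any annotated transcript start of the gene, was found at 8 of the 10 genes. The background was 49.8% of protein-coding genes. The genes with a TSS peak were Ccnd1, Ccnd3, Cdk4, Cdk6, Cdkn1b, Cdkn1c, Rb1 and Mycn. The cyclin gene Ccnd2 and the inhibitor gene Cdkn1a had none, and none appeared in the wider promoter of 5000 bp upstream to 1000 bp downstream. When the peak had to cover the start itself, 7 genes were left, against 44.2% of protein-coding genes, because the Cdkn1c peak began 136 bp downstream of the start. With stricter limits on fold enrichment (at least 4) and q (at most 0.001), 8 genes kept a TSS peak, against 37.8% of protein-coding genes. The study's high-confidence peaks use these limits and also a p limit and presence in several replicates, which the pooled list does not allow to be checked.

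**Figure D1:**
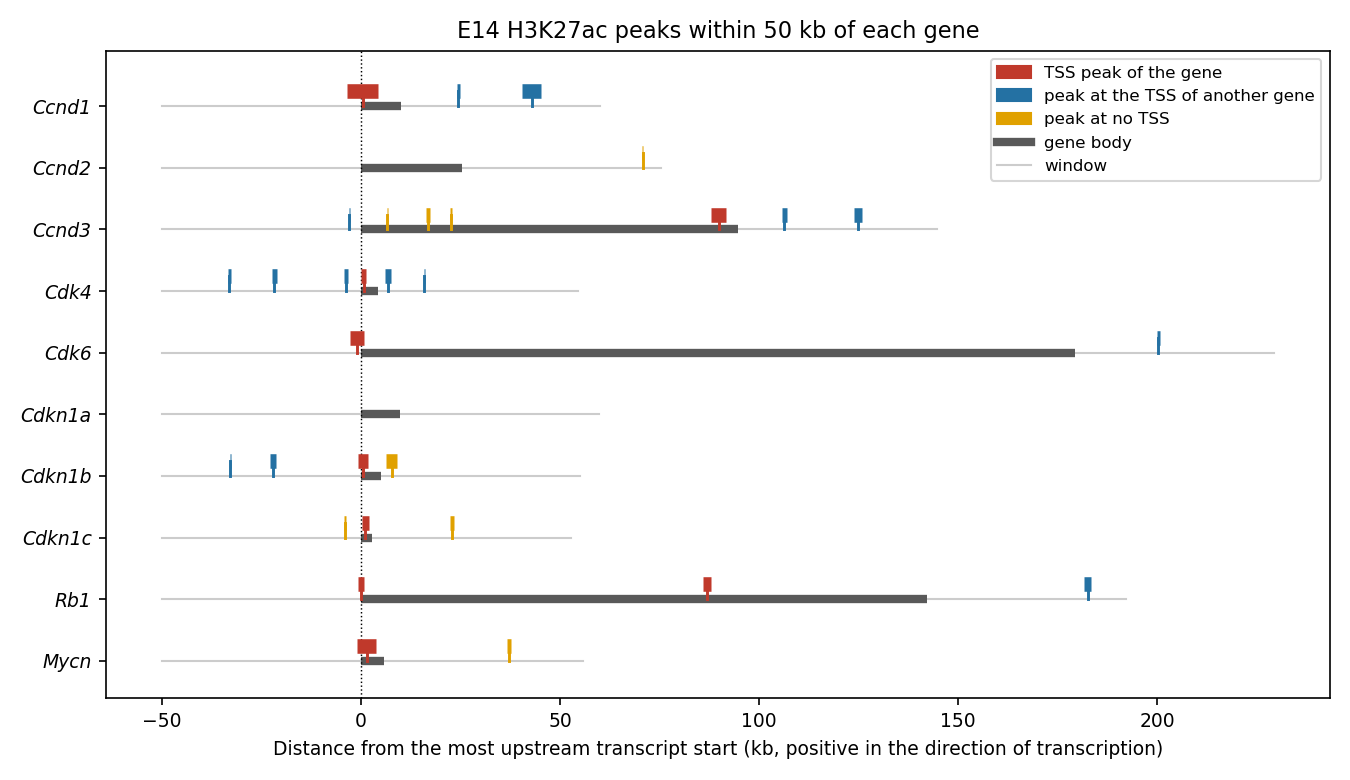
H3K27ac peaks in the window of each of the 10 genes, drawn as bars along the distance in kb from the most upstream transcript start, with the gene body in dark grey. Red bars are TSS peaks of the gene, blue bars lie at the TSS of another gene and yellow bars at no TSS. Ccnd1 and Mycn have wide red bars, the Cdkn1a window is empty, and the red bar of Ccnd3 lies 88.0 kb into the gene.

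The promoters of the genes differed in their content of CpG dinucleotides, which are dense at most promoters of widely used genes. Over 2 kb centred on the most upstream start, the observed to expected CpG ratio was 0.15 at Cdkn1a and 0.54 at Ccnd2, the genes with no TSS peak. It was 0.56 at Cdk4, 0.72 at Mycn, 0.76 at Cdkn1b, 0.78 at Cdk6 and Cdkn1c and 1.0 at Rb1. Cdkn1a thus stood below the rest, whereas Ccnd2 lay next to Cdk4, which had a TSS peak. Of protein-coding genes with a ratio under 0.3, 6.5% had a TSS peak, against 55.9% between 0.3 and 0.6 and 89.2% at 0.6 or more. No base of these windows was unknown in the assembly. At Ccnd3 the ratio was 0.33 at the outer start, which had no peak, and 0.65 at the inner start, which had one.

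The 250 bases before the start of 5 promoters are printed 5′ to 3′ on the strand of the gene, from the mm9 assembly, because they show the promoters with the highest pileup (Cdk4), a long peak (Mycn), the inner start of Ccnd3 and the promoters without a peak (Ccnd2 and Cdkn1a). Capitals mark matches on either strand to a GC box (GGGCGG), an E-box (CACGTG), which MYC family proteins bind, or an E2F element (TTTCGCGC or TTTGGCGC). They lie at chr6:127101067-127101316 (minus strand), chr17:47730166-47730415 (plus), chr10:126500340-126500589 (plus), chr17:29227674-29227923 (plus) and chr12:12948721-12948970 (minus).
Ccnd2: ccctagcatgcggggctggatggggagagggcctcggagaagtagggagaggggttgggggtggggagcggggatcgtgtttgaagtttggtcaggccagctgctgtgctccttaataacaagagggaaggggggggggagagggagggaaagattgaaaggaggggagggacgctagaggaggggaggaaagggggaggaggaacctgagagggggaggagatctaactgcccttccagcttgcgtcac
Ccnd3 inner start: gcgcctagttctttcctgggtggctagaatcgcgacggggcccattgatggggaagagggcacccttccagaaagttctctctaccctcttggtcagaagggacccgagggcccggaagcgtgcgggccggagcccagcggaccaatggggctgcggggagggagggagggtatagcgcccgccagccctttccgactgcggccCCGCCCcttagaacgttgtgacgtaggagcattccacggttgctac
Cdk4: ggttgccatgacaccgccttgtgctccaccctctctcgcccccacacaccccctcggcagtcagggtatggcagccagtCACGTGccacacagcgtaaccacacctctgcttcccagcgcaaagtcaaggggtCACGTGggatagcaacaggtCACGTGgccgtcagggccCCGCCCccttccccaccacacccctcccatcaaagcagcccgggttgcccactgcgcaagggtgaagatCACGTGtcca
Cdkn1a: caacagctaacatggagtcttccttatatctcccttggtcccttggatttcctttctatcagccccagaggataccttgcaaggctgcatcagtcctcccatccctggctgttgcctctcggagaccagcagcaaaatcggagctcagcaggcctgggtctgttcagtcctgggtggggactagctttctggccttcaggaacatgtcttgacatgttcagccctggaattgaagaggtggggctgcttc
Mycn: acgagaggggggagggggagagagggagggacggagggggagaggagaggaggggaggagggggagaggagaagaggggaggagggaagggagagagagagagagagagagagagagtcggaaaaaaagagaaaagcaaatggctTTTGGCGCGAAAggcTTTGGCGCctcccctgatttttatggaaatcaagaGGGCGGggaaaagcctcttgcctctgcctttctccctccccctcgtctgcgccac

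In the window from 250 bp before to 50 bp after the most upstream start, Cdkn1a held 2 CpG dinucleotides and Ccnd2 held 10, against 11 at Mycn, 22 at Cdk4 and 55 at Rb1. A GC box was present at 7 of 10 genes (not Ccnd2, Cdk6 and Cdkn1a), against 43.4% of all protein-coding promoters of the same length and 65.3% of those with a TSS peak. An E-box was present at 2 of 10 genes, against 7.78% of all promoters and 10.3% of those with a TSS peak. Cdk4 held 4 E-boxes, with first bases 171, 117, 97 and 10 bp upstream of the start, and 6 promoters of 22367 held as many or more. Cdk6 held 1 E-box. The E2F element was present at 1 of 10 genes, against 1.02% of all promoters and 1.61% of those with a TSS peak. Mycn held 3 matches, at 105, 101 and 90 bp upstream, the first pair overlapping on opposite strands, and 2 promoters of 22367, Mycn included, held 3 or more. The homeodomain core TAATTA, searched on both strands, was at none of the 10 genes, against 4.83% of all promoters and 2.28% of those with a TSS peak. Matches of letters describe the sequence only, and binding was not measured here.

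Of the TSS peaks of these 8 genes, 7 stood higher in the list by length than by pileup, against 43.7% of the 9829 TSS peaks of protein-coding genes, and the exception was Cdk4. The length ranks lay in the top 0.0668% to 33.5% and the pileup ranks in the top 3.08% to 79.4%. Lengths lay between 1281 bp at Cdk4 and 7915 bp at Ccnd1 (median 3032 bp), and 8 of 8 were longer than the median TSS peak of protein-coding genes (1082 bp, 9829 peaks). Pileups lay between 10.7 at Cdkn1c and 24.1 at Cdk4 (median 14.9), and 3 of 8 lay above the median TSS peak (16.4). The fold enrichment ran from 4.35 to 7.36, and 3 of 8 lay above the median of 4.74. From the longest to the shortest, the order was Ccnd1, Mycn, Ccnd3, Cdk6, Cdkn1b, Cdkn1c, Rb1 and Cdk4. From the highest pileup to the lowest, it was Cdk4, Rb1, Cdkn1b, Mycn, Cdk6, Ccnd3, Ccnd1 and Cdkn1c, so the longest peak was among those with the lowest mean pileup. With no replicate error, neighbours in these orders cannot be called different, and Ccnd3 and Cdk6 were nearly equal at 3575 and 3523 bp. The local isotype background at the 8 peaks, taken as pileup divided by fold enrichment, was 2.46 to 3.76, around the median of 3.14 for all peaks.

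**Figure D2:**
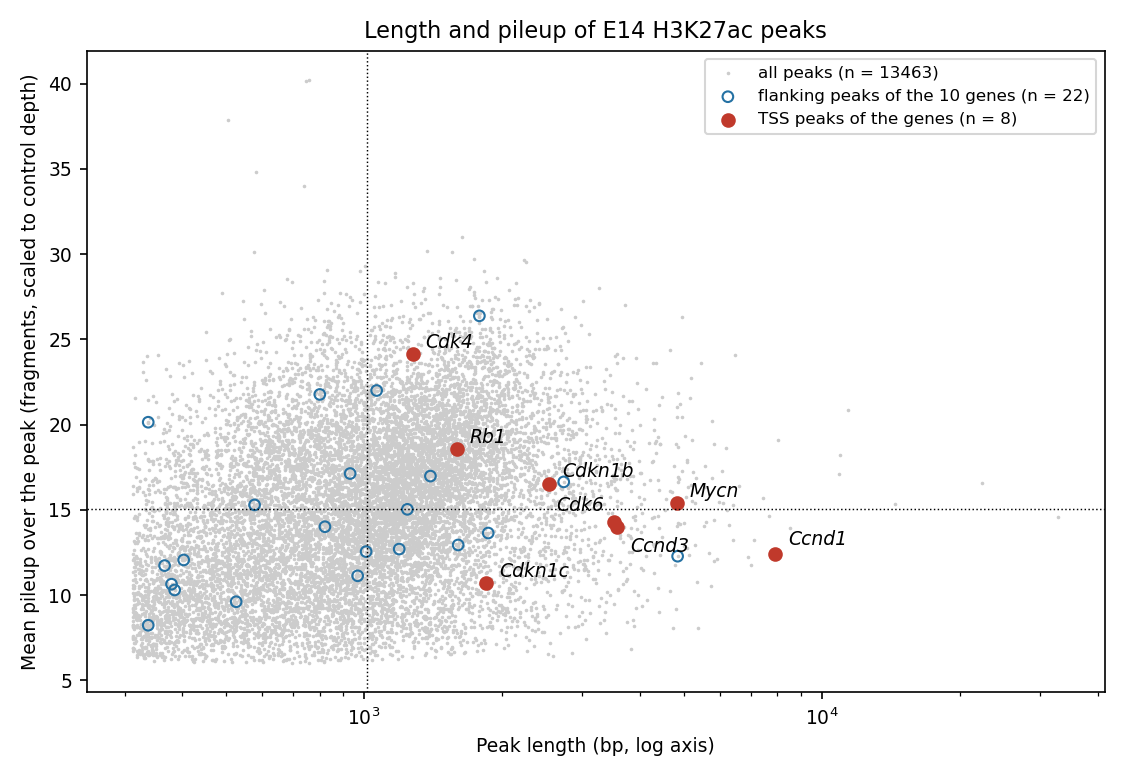
Length in bp (log axis) against mean pileup for all 13463 peaks (grey), the 22 flanking peaks (open blue circles) and the main TSS peaks of the 8 genes (red, named). The inner Rb1 peak is not singled out. Dotted lines are the medians of all peaks, 1015 bp and 15.1. Ccnd1 lies far to the right with a pileup of 12.4, whereas Cdk4 lies high with a length of 1281 bp.

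Ccnd1, the gene of cyclin D1, had the longest TSS peak of the 10 genes. The gene lies at chr7:152115836-152125774 on the minus strand. Its peak, 7915 bp long from 152121378 to 152129292, ranked 9 by length among all peaks, in the top 0.0668%, and 8 among the TSS peaks of protein-coding genes. Its pileup of 12.4 ranked only 9226 and its fold enrichment of 4.65 ranked 5901. By length times pileup it ranked 31. The peak reached 3518 bp upstream and 4396 bp downstream of the start, covered 44.2% of the gene body and 64.9% of the coding bases, and took in both annotated starts. The peaks next above it in length lay in the non-coding gene 4930578M01Rik (8502 bp) and at Setd1b (8019 bp), and those next below it at Zfp608 (7649 bp) and Zfp36l1 (7440 bp). Peaks in the list were at least 1253 bp apart. When peaks under 5 kb apart were joined, a setting chosen after the data were seen, the Ccnd1 peak stayed alone and fell to rank 106 of 12811, as other loci gained in length. When peaks under 12.5 kb apart were joined, it fell to rank 1037 of 11527.

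The Ccnd1 window held further peaks only at other genes, all downstream of Ccnd1. The nearer, at the Oraov1 TSS, lay 14.1 kb beyond the end of Ccnd1, with a length of 822 bp and a pileup of 14.0. The farther, over Fgf15, which encodes a fibroblast growth factor of retinal progenitors, began 40.5 kb from the Ccnd1 start, with a length of 4842 bp (rank 68) and a pileup of 12.3. With these, peaks covered 13579 bp of the window, and 0.376% of protein-coding windows held as much or more. The Oraov1 and Fgf15 peaks had fold enrichments of 3.86 and 3.91. Both were below the stricter limit of 4, which left 1 peak in the window. The upstream side held no peak, and the next one lay 70.3 kb away.

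Ccnd2, the gene of cyclin D2, was not in an acetylated region of the list. It lies at chr6:127075797-127101066 on the minus strand, with 1 annotated start. The only peak in its window was 386 bp long with a pileup of 10.3 and a fold enrichment of 3.72, lay inside Fgf23 and began 70.5 kb downstream of the start. By length it ranked 12670, near the bottom of the list. Ccnd2 lay in a stretch of 282.5 kb without a peak at its start, and 14.7% of the gaps between neighbouring peaks were as long or longer. The start of 26.6% of protein-coding genes was as far from a peak or farther. No peak means that the region did not pass the caller's limits at this depth, not that the mark was absent.

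Ccnd3, the gene of cyclin D3, had its TSS peak at the inner of 2 annotated protein-coding starts, which lie 88.4 kb apart. The gene lies at chr17:47642000-47736632 on the plus strand. The peak at the inner start, from 47730018 to 47733592, was 3575 bp long (rank 199), with a pileup of 14.0 (rank 7815) and a fold enrichment of 4.74. It reached 398 bp upstream and 3176 bp downstream of the inner start. It joined with no other peak and ranked 674 (under 5 kb) and 1523 (under 12.5 kb) in the joined lists. The outer start had no peak of its own. The nearest lay 2.72 kb upstream, at the TSS of Taf8, with a length of 338 bp and a pileup of 20.1. Inside Ccnd3 and outside its exons, 3 short peaks lay 6.42 to 22.9 kb downstream of the outer start, with lengths of 367, 969 and 526 bp and pileups of 11.7, 11.1 and 9.61. The remaining peaks were at the starts of Bysl and Med20 (1244 bp) and of Med20 and Usp49 (1868 bp). In all, the window held 7 peaks, and 2.28% of protein-coding windows held as many or more. With the stricter limits on fold enrichment and q, 4 of the 7 were left. The gene is long, and per kb of window 9.26% of protein-coding windows had as many acetylated bp or more, against 2.34% without scaling.

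Cdk4, the gene of the kinase partner of D cyclins, had the highest pileup. The gene lies at chr10:126500590-126504976 on the plus strand and has 9 annotated starts, of which 8 lay within 1000 bp of the peak. The peak, from 126500613 to 126501893, was 1281 bp long (rank 4514), with a pileup of 24.1 (rank 414, top 3.08%) and a fold enrichment of 7.36 (rank 449). It was the shortest of the 8 TSS peaks and began 23 bp downstream of the most upstream start. The 5 flanking peaks were at the starts of Tsfm, of Fam119b and Mettl1, of March9, of Tspan31 and of Agap2, so none was left that was not at the TSS of a neighbour. The March9 peak, 3.22 kb upstream, had a length of 1066 bp and a pileup of 22.0. Joining peaks under 5 kb apart merged 3 peaks at Cdk4 into a span of 11831 bp, gaps included, which ranked 20 of 12811. Joining under 12.5 kb merged 4 peaks into 20378 bp, which ranked 143 of 11527, so the length rank of this compact peak depends on joining.

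Cdk6, the gene of the other kinase partner, had a long TSS peak of lower pileup. The gene runs over 179.3 kb at chr5:3343893-3523218 on the plus strand. The peak, from 3341152 to 3344674, was 3523 bp long (rank 214), with a pileup of 14.3 (rank 7494) and a fold enrichment of 4.54. It reached 2741 bp upstream and 781 bp downstream of the start, the reverse of Mycn and Ccnd3, whose peaks lay mainly downstream. In the joined lists it stayed alone and ranked 691 and 1534. The rest of the gene held no peak, and peaks covered 0.436% of its body. The only other peak of the window was at Fam133b (801 bp, pileup 21.8), beyond the end of Cdk6. The Cdk4 peak was thus shorter and higher than the Cdk6 peak, by 1281 against 3523 bp and 24.1 against 14.3 in pileup.

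**Figure D3:**
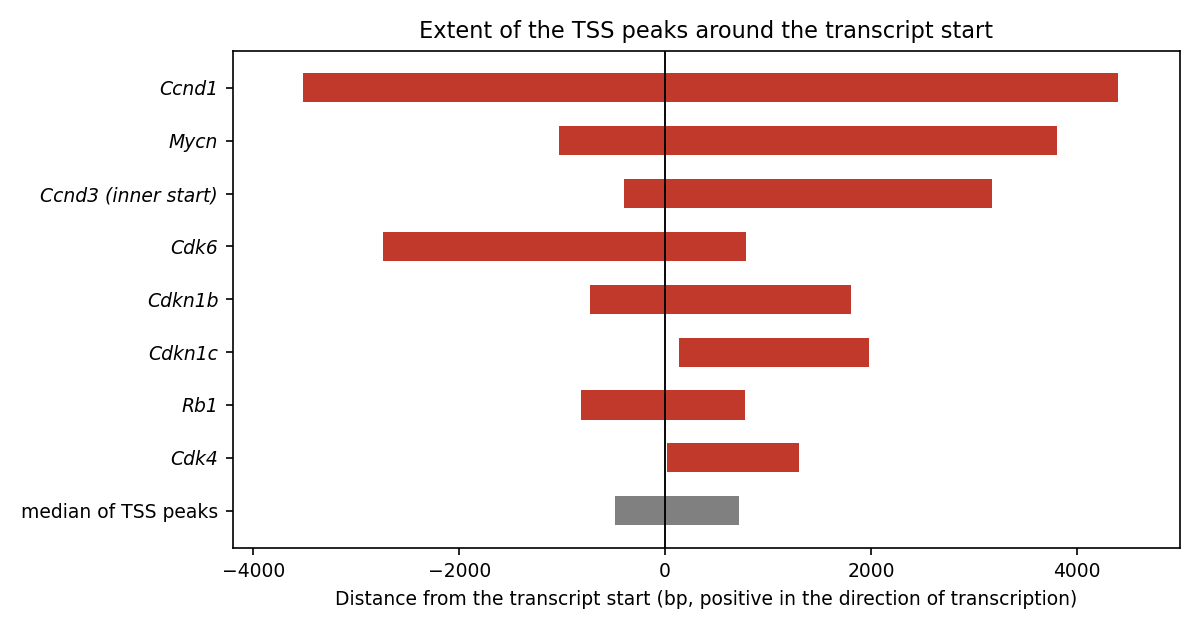
Extent in bp of the TSS peaks of the 8 genes around the transcript start (vertical line), positive in the direction of transcription. The grey bar joins the median upstream extent (486 bp) and the median downstream extent (717 bp). Both medians are over the 8414 protein-coding genes whose TSS peak covers the most upstream start. For Ccnd3 the inner start is used. Ccnd1 extends on both sides, Mycn and Ccnd3 mainly downstream, and Cdk6 mainly upstream.

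Among the inhibitors, Cdkn1b and Cdkn1c had TSS peaks and Cdkn1a had no peak in its whole window. The Cdkn1b gene (p27) lies at chr6:134870419-134875531 on the plus strand. Its peak, from 134869688 to 134872227, was 2540 bp long (rank 615), with a pileup of 16.5 (rank 5234) and a fold enrichment of 4.40, and covered 100% of the coding bases. A second peak of 2731 bp (rank 492), from 134876816 to 134879546, lay 1.29 kb beyond the end of the gene. It was longer than the TSS peak and had a like pileup of 16.6, lay at no annotated TSS, and ranked 97 by length among the 2855 peaks at no TSS. Its fold enrichment was lower, 3.94 (rank 9293), on a higher local background of 4.22 against 3.76, and was below the stricter limit of 4. Joining peaks under 5 kb apart merged this second peak with the TSS peak into a span of 9859 bp that ranked 47, and 802 with 12.5 kb. The other peaks of the window, of 404 and 1397 bp, were at starts of Gpr19, with pileups of 12.1 and 17.0.

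The Cdkn1c gene (p57), an imprinted gene expressed from the maternal copy, lies at chr7:150644255-150646955 on the minus strand. Its peak, from 150644970 to 150646819, was 1850 bp long (rank 1664) and had the lowest pileup of the 8, 10.7 (rank 10686), with a fold enrichment of 4.35. It covered 68.5% of this short gene and 100% of the coding bases. Peaks of 338 bp (pileup 8.23), 3.84 kb upstream, and 1011 bp (pileup 12.6), 22.4 kb downstream, lay at no TSS. Joined under 5 kb with the nearer of these, the TSS peak became a span of 6159 bp that ranked 251, and 1223 with 12.5 kb. The list does not separate the parental copies.

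The Cdkn1a gene (p21), a target of p53 in DNA damage, lies at chr17:29227924-29237667 on the plus strand and has 3 annotated starts, none with a peak. The nearest peak lay 56.9 kb upstream, at Srsf3, with a length of 2399 bp and a pileup of 20.8. On the other side the next peak, at Ppil1, was 162.7 kb beyond the end of the gene. A window with no peak was found for 6235 protein-coding genes (27.9%).

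Rb1, the gene of the retinoblastoma protein, had a TSS peak at its main start and another inside the gene. The gene runs over 142.1 kb at chr14:73583480-73725629 on the minus strand, with 6 annotated starts. The peak at the main start, from 73724850 to 73726445, was 1596 bp long (rank 2617), with a pileup of 18.6 (rank 3315) and a fold enrichment of 5.21. The inner peak, from 73637744 to 73639667, was 1924 bp long (rank 1463), with a lower pileup of 16.2 and a higher fold enrichment of 6.59 (rank 1046). It lay at the start of a non-coding Rb1 transcript and also at that of Lpar6, a receptor gene inside Rb1, so it cannot be given to either gene. The third peak of the window, at the neighbour Rcbtb2, had a pileup of 26.4 and ranked 109 of all peaks.

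Mycn had the second longest TSS peak of the genes. The gene lies at chr12:12942902-12948720 on the minus strand. The peak, from 12944911 to 12949749, was 4839 bp long (rank 71, top 0.527%), with a pileup of 15.4 (rank 6360) and a fold enrichment of 5.11 (rank 4124). By length times pileup it ranked 102. With peaks under 5 kb and under 12.5 kb apart joined, it stayed alone and ranked 466 and 1374 by length. It reached 1029 bp upstream and 3809 bp downstream of the most upstream start, covered 65.5% of the gene body and took in all 3 annotated starts. The window held 1 further peak, 933 bp long with a pileup of 17.1 and at no TSS, inside 4930519A11Rik, 36.7 kb downstream. On the upstream side the next peak, at Ddx1, was 306.7 kb away.

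Of the 31 peaks in the windows, 9 were at a TSS of the genes, with the inner Rb1 peak shared with Lpar6 counted among them, and 22 were flanking peaks. Of the flanking peaks, 14 lay at a TSS of another gene. Together 23 of the 31 peaks (74.2%) lay at a TSS of any gene, against 78.8% of all peaks in the list. The 8 flanking peaks at no TSS belonged to 5 genes, with 3 at Ccnd3, 2 at Cdkn1c and 1 each at Ccnd2, Cdkn1b and Mycn. They were 338 to 2731 bp long (median 730 bp) with pileups of 8.23 to 17.1 (median 11.4), against medians of 801 bp and 9.9 for the 2855 peaks at no TSS. Their median fold enrichment was 3.93, against 3.79 for all peaks at no TSS. Only the Mycn peak and the Cdkn1c peak of 1011 bp passed the stricter limits on fold enrichment and q. The other flanking peaks at no TSS were below the fold limit of 4, whereas the TSS peaks of all 8 genes passed. The windows differ in length with the genes, from 102.7 kb at Cdkn1c to 279.3 kb at Cdk6. Per kb of window, peaks covered 123.5 bp at Ccnd1, 67.3 bp at Cdkn1b, 58.5 bp at Cdk4, 54.5 bp at Mycn, 45.7 bp at Ccnd3, 31.1 bp at Cdkn1c, 21.9 bp at Rb1, 15.5 bp at Cdk6, 3.08 bp at Ccnd2 and 0 at Cdkn1a, against a median of 10.8 bp. These values include peaks at neighbours. The gene's own TSS peak made up 1281 of 6104 bp in the Cdk4 window and 7915 of 13579 bp in the Ccnd1 window.

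Other cell cycle genes were compared by lists of textbook roles. A TSS peak was found at 44 of 46 genes, against 49.8% of all protein-coding genes and 89.2% of those with CpG-rich promoters. The E2F and pocket protein list (E2F factors, their partners and the RB1 relatives Rbl1 and Rbl2) had TSS peaks at 12 of 12 genes, with a median length of 1244 bp and a maximum of 3015 bp at E2f3. The list of cyclins E, A and B with their kinases and the CDK-activating kinase, called later cyclins and kinases, had them at 11 of 11 genes, with a median of 983 bp and a maximum of 1963 bp at Ccne2. The INK4 inhibitors, which bind CDK4 and CDK6, had them at 2 of 4 genes, at Cdkn2c (1316 bp) and Cdkn2d (1156 bp) and not at Cdkn2a and Cdkn2b. The Myc network had them at 10 of 10 genes, with a median of 1519 bp, and the longest were at Mycl1 (4667 bp), Mxi1 (3599 bp) and Myc (3416 bp). The CDC25 phosphatases and the genes of cyclin and inhibitor turnover had them at 9 of 9 genes, with a median of 1585 bp and a maximum of 2104 bp at Fbxw7. With the stricter limits on fold enrichment and q, 34 of the 46 genes kept a TSS peak, against 37.8% of all protein-coding genes. The median of the 8 genes, 3032 bp, lay above that of each of these lists and below that of the RPC markers, 4547 bp. The lists differ in size and were not tested against each other.

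**Figure D4:**
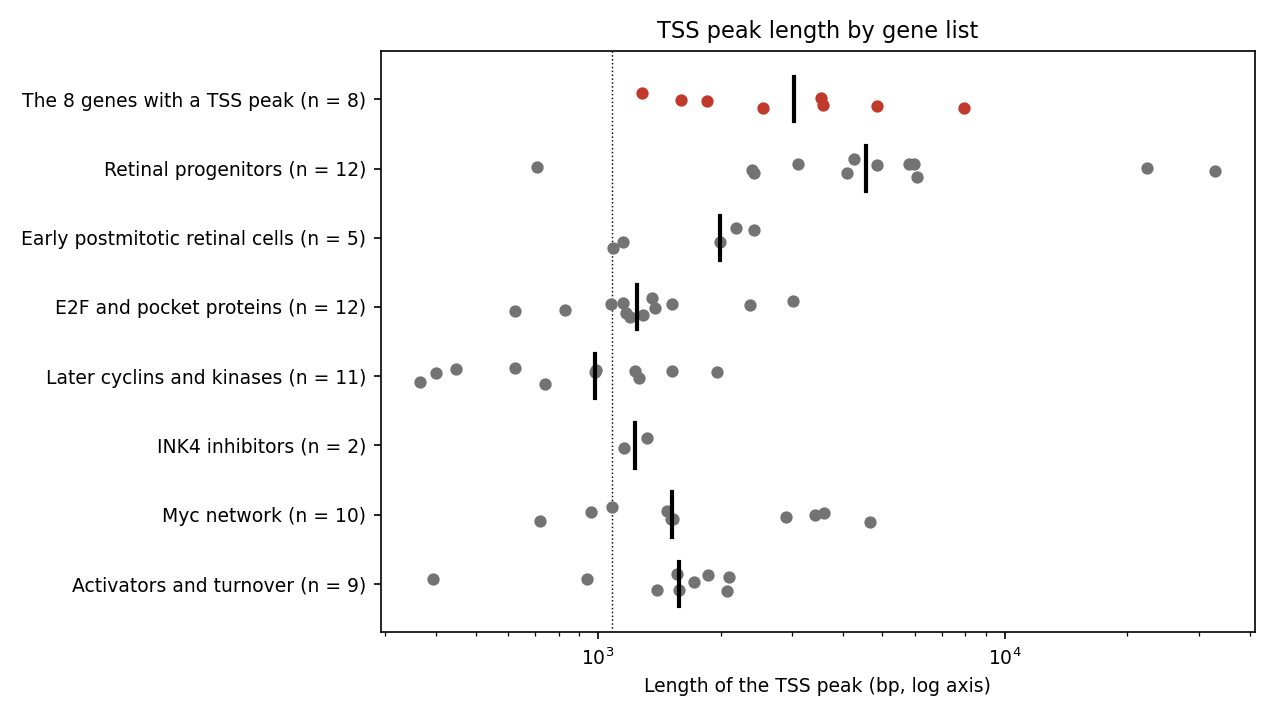
Length in bp (log axis) of the TSS peak of each gene, by list, with the median of each list as a black bar and the median of all TSS peaks of protein-coding genes (1082 bp) as a dotted line. The 8 genes (red) run from 1281 to 7915 bp, the later cyclins and kinases from 366 to 1963 bp, and the RPC markers up to 32865 bp at Pax6.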

How the data were processed

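E14 H3K27ac ChIP-Seq of mouse retina was analysed. Other samples were not used here. Bowtie2 placed the reads on mm9, and the authors used only those that mapped uniquely. Regions were called in the broad mode of MACS, version 2.1.0.20140616, on the pooled replicates (q cutoff 0.05, broad cutoff 0.1, at most 1 tag per position). As deposited, the pileup signal is the mean over a region after scaling to the smaller library, the fold enrichment is the ratio to the local isotype background, and p and q values are given as −log10, with the length in bp.

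Gene positions and transcript starts came from GENCODE vM1, and promoter sequence from NCBIM37, which is mm9. A gene with several TSS peaks was given the one nearest to its most upstream start. Rank 1 is the longest or highest peak. Motifs were searched on both strands. The promoter sequence of Ccnd1 is not reported here. With 1 pooled list no test was run. The depth of 113543038 ChIP and 9210563 control tags limits which regions could be called. Genes named are the 10 genes, neighbours with a TSS in a flanking peak, list genes without a TSS peak or with the longest, and peaks adjacent in length rank; Mxi1, Myc, Cdkn2d, Lpar6, the genes around flanking peaks at no TSS (Fgf23 and 4930519A11Rik) and those at the next peaks outside a window (Srsf3, Ppil1 and Ddx1) were named after their values were seen. The gene lists, like the 10 genes, were chosen with earlier results of these data known. The overlap functions were checked on simulated data. Alternatives were other TSS windows, window sizes, stricter limits, joining and other ranks. Computations used Python 3.11.15, numpy 2.4.6, pandas 2.3.3, scipy 1.17.1 and matplotlib 3.10.9.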

Additional observations from a re-analysis of the deposited data

How the results depend on the processing

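Of 21 comparisons of a summary with an alternative, 6 moved the value and are given here. Of 68 comparisons for single genes, 50 were counted as moved and 18 as unmoved. Small shifts counted as unmoved, such as Ccnd1 by length, from the top 0.0668% of all peaks to the top 0.0814% of TSS peaks. The like shift of Cdkn1c from 12.4% to 13.0% counted as moved. Counts of genes with a TSS peak, of list genes with one and of flanking peaks at another TSS stayed within 1.5 times the reported count. With windows of 100 kb the 31 peaks became 48. With 20 kb on either side 21 were left, and 21 also under the stricter limits on fold enrichment and q. Both were within 1.5 times and counted as unmoved. The median rank of the TSS peaks by pileup, the top 51.5% of all peaks, became the top 63.9% among TSS peaks only and the top 42.3% by fold enrichment. The median rank by length, the top 3.08%, became the top 11.3% with peaks under 12.5 kb apart joined, a setting chosen after seeing the data. Joining under 5 kb left this median at the top 2.80% although the ranks of the 8 peaks shifted. Joining under 1000 bp changed nothing, since no peaks were that close. The median share of protein-coding windows with as many acetylated bp or more, 9.19%, became 13.6% per kb of window and 6.65% with 20 kb on either side. The causes of these shifts were not tested. No paired analysis was possible because the list pools its replicates, and no replicate could be left out. At this depth, a region without a peak is one that did not pass the caller's limits, and its level is unknown.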
